A study of Mus musculus with 12 samples.

Results

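The genes described here encode the parts of the G protein and cAMP pathway: heterotrimeric G protein subunits, adenylyl cyclases, cyclic nucleotide phosphodiesterases, protein kinase A (PKA) subunits and RGS regulators. Membership went by gene symbol. It takes the probe sets whose single platform symbol begins with Gna, Gng, Prkar or Prkac, or with Gnb, Adcy, Pde or Rgs followed by a digit, and leaves out the scaffold gene Gnb2l1. This gave 86 genes with 185 probe sets, of 15964 genes with 36701 probe sets in all. A gene was represented by its probe set with the highest mean over the populations, and its other probe sets served as a check. Of the 86 genes, 75 passed the filter on dim values, as did 12267 of all genes.

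RNA came from MIN6 cells, β cells derived from an insulinoma of the mouse, grown as 4 populations under shared culture conditions. The populations were parental cells at passages 35 to 40 (Pr-HP), which the study calls non-responder cells because glucose no longer raised their insulin secretion, clone 4 cells, a subclone obtained by limiting dilution, at passages 40 to 50 (C4-HP) and 17 to 20 (C4-LP), and parental cells at passages 17 to 20 (Pr-LP). C4-HP, C4-LP and Pr-LP are called responder cells. Biotin-labelled RNA of each population was read once on every chip (A, B, C) of Affymetrix's MG_U74v2 GeneChip set, 12 arrays in all, and the values are deposited intensities in arbitrary units.

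Heterotrimeric G proteins pass the signal of a receptor to enzymes inside the cell. An activated Gs α subunit stimulates adenylyl cyclase, which makes cAMP from ATP, and Gi α subunits inhibit it. RGS proteins shorten the signal by speeding the hydrolysis of GTP on the α subunit, phosphodiesterases degrade cAMP, and PKA releases its catalytic subunits when cAMP binds the regulatory subunits. In β cells, incretin hormones such as GLP-1 raise cAMP and amplify insulin secretion, and adrenaline and somatostatin lower it through Gi and Go proteins.

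The median intensity of an array was 214.2 to 216 units for chip A, 161.9 to 162.7 for chip B and 92.5 to 92.9 for chip C. The β-cell label was checked with Ins2, an insulin gene, which had 15526 units in Pr-HP against 14920, 15461 and 14771 units in C4-HP, C4-LP and Pr-LP, and with Iapp, the amylin gene, which had 7444 units in Pr-HP against 8111, 9641 and 8291, although signals as bright as that of Ins2 may lie outside the linear range of an array. The 8 β-cell markers measured summed to 29099 units in Pr-HP against 29530, 31491 and 28433, with Pcsk1 past 2-fold higher. Ins2 and Iapp made up most of each sum. Of the 8, 4 were below all responder populations in Pr-HP and 3 above, where 27.7% and 29.6% of all genes were. Their median log2 difference from the responder cells was -0.235. Ins1, the other insulin gene, was not among these 8. By quantitative RT-PCR, the study found Ins1 much lower in Pr-HP than in the responder cells. The channel genes Abcc8 and Kcnj11 both had a log2 difference of -0.58 from the responder cells. Their other probe sets gave -0.05 for Abcc8 and -1.02 for Kcnj11. Pr-HP stood apart in some markers of other cells. The 11 neuronal markers summed to 12745 units in Pr-HP against 8356, 6882 and 5619 units in C4-HP, C4-LP and Pr-LP. Of them, 4 of 11 (Stmn2, Sox11, Nefl and Nefm) were past 2-fold higher, where 1.5% of all genes were. Nefl and Nefm were also high in C4-HP, at 1637.5 and 864.6 units, against 430.8 and 353 in C4-LP and 225 and 459 in Pr-LP. Rbfox3, a defining neuronal gene, had 160.2 units in Pr-HP against 147, 172 and 161. The 8 macrophage markers summed to 2901 units in Pr-HP against 1316, 1298 and 1360, with Ptprc and Lyz2 under the floor (the chip's 20th percentile) in all 4 populations, and Cd68 alone past 2-fold, at 1785 units in Pr-HP against 196, 209.7 and 177. The 7 markers of other endocrine cells summed to 11967 units in Pr-HP against 5501, 7749 and 2411, of which the glucagon gene Gcg made up 10552 units in Pr-HP against 2915, 3175 and 502, while Ttr had 248 units in Pr-HP against 1362, 3135 and 435. The 9 exocrine and duct markers summed to 5149 units in Pr-HP against 3908, 3867 and 4519, with Car2 alone past 2-fold, and the 9 stromal and endothelial markers to 3318 units against 3325, 3476 and 3507. The 3′ over 5′ signal of the Gapdh controls, a measure of RNA quality, had its lowest value in Pr-HP for every chip (0.867 against 0.968 to 1.05 on chip A). Where these marker and control values moved with Pr-HP, their part in the results below was not tested.

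Pr-HP cells were first set against the responder cells. In the limma fit across all probe sets no member gene was called in either direction at an adjusted p of 0.05, where 0.0571% of all genes were called higher and 0.0245% lower in Pr-HP. Without adjustment, 15 of 75 members (20%) had a limma p under 0.05, against 9.94% of all genes. Of these 15, Gnai1, Rgs4, Gna12, Adcy5, Adcy7, Pde3b and Pde12 were higher in Pr-HP, and Gnaz, Adcy6, Pde4dip, Prkar1b, Prkar2b, Prkaca, Prkacb and Rgs7bp were lower. Of the 75 members, 3 (4%) were more than 2-fold higher in Pr-HP than the mean of the responder cells, namely Gnai1, Rgs4 and Pde4b, against 1.5% of all genes, and 1 (1.33%), Prkar2b, was more than 2-fold lower, against 1.02% of all genes. The median log2 difference was -0.01 over members and 0.00 over all genes, and the median of its size was 0.20 and 0.13. Differences are on the log2 scale after values under the floor were raised to it, and each fold is the antilog of such a difference. All p-values depend on how far the responder populations lie apart, which are not replicates of 1 condition, and on a single Pr-HP array for each chip. In RNA from whole cultures, more cells with a transcript and more transcript per cell cannot be told apart.

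**Figure D1:**
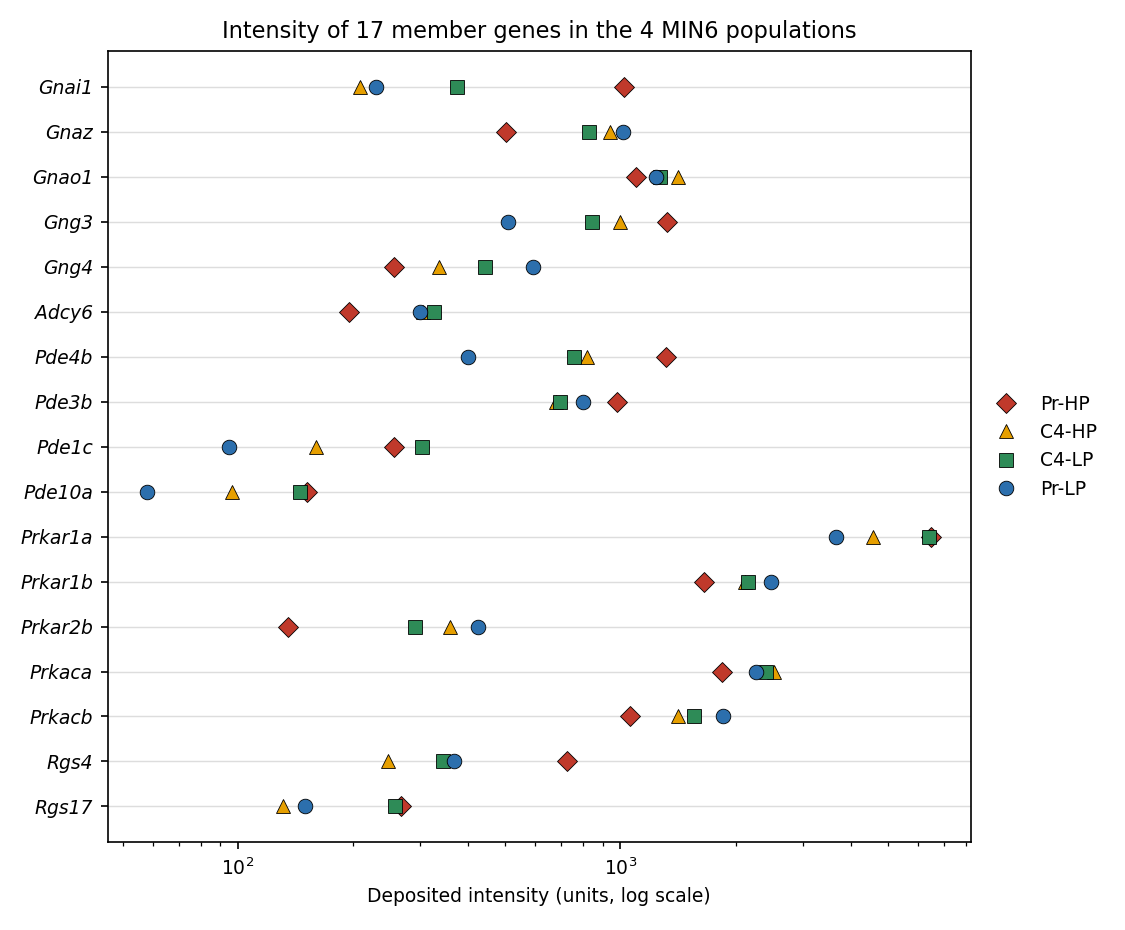
Deposited intensity (x axis, arbitrary units, log scale) of named member genes (y axis) in Pr-HP (red diamonds), C4-HP (orange triangles), C4-LP (green squares) and Pr-LP (blue circles), 1 array each, so no error bars are drawn. Gnai1, Rgs4 and Pde4b lie to the right in Pr-HP and Prkar2b, Gnaz and Adcy6 to the left of all 3 responder populations. Levels of different genes are not comparable, since each probe set binds with its own strength.

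With 1 probe set per gene, the inhibitory α subunits had the widest range of differences of any role, from -0.88 (Gnaz) to 1.96 (Gnai1). The upper end rests on a single Gnai1 probe set. Gnai1, which encodes a Gi α subunit that inhibits adenylyl cyclase, had 1022 units in Pr-HP against 209, 374 and 230.0 units in C4-HP, C4-LP and Pr-LP. The Pr-HP value lay far above all 3 responder values, which averaged 271 ± 89.8 units (SD over 3 populations). The difference was 1.96 (SE 0.38), or 3.90-fold, with a limma p of 0.313 after the Benjamini-Hochberg adjustment over all probe sets. Gnai1 was also singled out by the study on these arrays, so its level in them is a description. The probe sets of Gnai1 disagreed. A second one on chip A had 257.9 units in Pr-HP against 105, 155 and 124 units, a log2 difference of 1.03, whereas the pair on chip B gave 0.06 and 0.08, with 394 units in Pr-HP against 375.0, 375.2 and 381 in one of them. Over the mean of the 4 probe sets, the difference was 0.78.

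Gnaz, which encodes the α subunit of Gz, a member of the Gi family that also inhibits adenylyl cyclase, lay on the opposite side. It had 502 units in Pr-HP against 941, 829 and 1013 units in C4-HP, C4-LP and Pr-LP, so that the 3 responder values stayed close together and Pr-HP lay well below them. The difference was -0.88 (SE 0.15), or 1.84-fold lower, with a limma adjusted p of 0.257. All 3 probe sets of Gnaz pointed the same way, with log2 differences of -1.09 (limma adjusted p = 0.119) and -0.62 (adjusted p = 0.401) in the other probe sets. The study also listed Gnaz from these arrays, through the probe set with -1.09, so this too is a description.

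The other members of this family showed smaller differences. Gnai2, a widely expressed Gi α subunit, had 5472 units in Pr-HP against 4227, 6025 and 5804 in C4-HP, C4-LP and Pr-LP, and the lowest value was that of C4-HP. Gnai3, its close relative, had 3536 units in Pr-HP against 3596, 2362 and 2905, with Pr-HP and C4-HP nearly equal and above both low-passage populations. Gnao1, the Go α subunit of neuroendocrine cells, had 1101 units in Pr-HP against 1412, 1268 and 1237, below all 3 responder populations, with a log2 difference of -0.24 (limma adjusted p = 0.639). All 5 of its probe sets were below the responder cells, with differences between -0.67 and -0.08. Gnat2, which encodes the transducin α subunit of cone photoreceptors, had a difference of -0.40 (0.03 from Pr-LP alone). Its rod counterpart Gnat1 was under the floor in all 4 populations.

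The α subunits of the other classes lay within 2-fold. Gnas, which encodes the stimulatory Gs α subunit, had 12467 units in Pr-HP against 11325, 15781 and 13158 units in C4-HP, C4-LP and Pr-LP, a difference of -0.09 (SE 0.22), and Pr-HP lay inside the responder range. Its other probe sets gave -0.32 and 0.27, so their directions disagreed. The imprinted Gnas locus also yields Gnasas1, an antisense transcript that the symbol rule took in, at 195 units in Pr-HP against 180.4, 182 and 185. Gnal, the α subunit of olfactory signalling, had 129.9 units in Pr-HP against 131, 139 and 133. Of the Gq class, whose members activate phospholipase C, Gna11 differed by -0.07 and Gna15 hardly at all, and Gnaq had 147 units in Pr-HP against 151, 254 and 199, nearly the value of C4-HP. Of the remaining class of α subunits, Gna12 had 516 units in Pr-HP against 335, 390.0 and 406 (0.46, limma adjusted p = 0.491), and Gna13 had 309.6 units against 349, 349.6 and 337. The second probe set of Gna12 gave 0.59.

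The β and γ subunits, which anchor the α subunit to the membrane and signal on their own once released, were measured by 6 and 10 genes, of which 4 and 9 passed the filter. Gnb2 had 3894 units in Pr-HP against 3530, 2870 and 3026 units in C4-HP, C4-LP and Pr-LP, above all responder populations by a small margin (0.32, limma adjusted p = 0.628). Gnb1, the other abundant β subunit of most cells, had 650.1 units in Pr-HP against 769, 660.1 and 599, inside the responder range, and Gnb4 differed by -0.07. Gnb1l, named for its likeness to β subunits and not one of them, differed by 0.11.

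A pair of γ subunits known from neurons and endocrine cells lay on opposite sides of the responder cells. Gng3 had 1325 units in Pr-HP against 996, 844 and 507 units in C4-HP, C4-LP and Pr-LP, a log2 difference of 0.82 (SE 0.43, limma adjusted p = 0.637). Gng4 had 257 units in Pr-HP against 337, 443 and 592 units, a difference of -0.79 (SE 0.34, adjusted p = 0.565). In these probe sets, Pr-HP was the extreme population and Pr-LP the opposite extreme, with the clone 4 populations between. The other probe set of Gng4 gave -0.35, and there C4-LP, at 409 units, was slightly above Pr-LP, at 398 units. Gng12 had 4239 units in Pr-HP against 4375, 4425 and 3142, with Pr-LP apart from the other 3 populations. Gng10 had 498 units in Pr-HP against 635, 676 and 524, and the remaining 5 genes that passed the filter (Gng2, Gng7, Gng8, Gng11 and Gng13) had differences between -0.20 and 0.05.

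**Figure D2:**
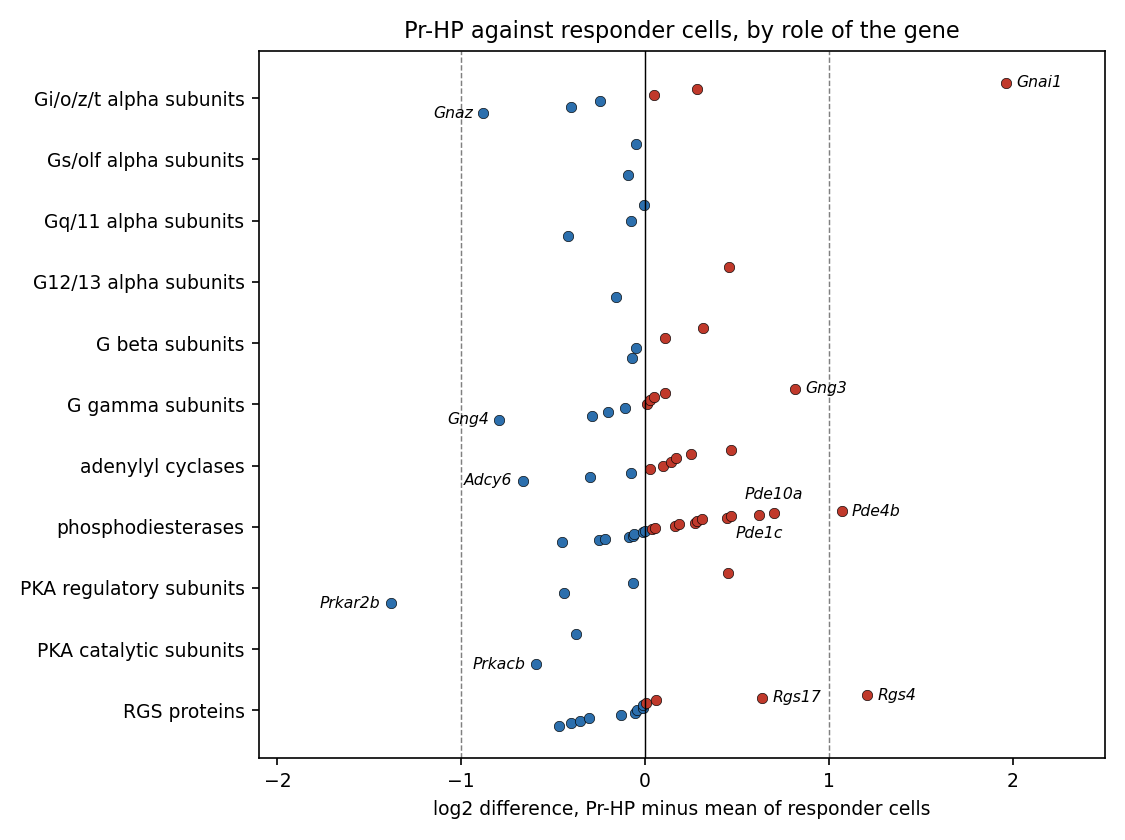
Log2 difference (x axis), Pr-HP minus the mean of the 3 responder populations, for each member gene that passed the filter except Gnasas1 (1 point per gene), grouped by role (y axis). Dashed lines mark 2-fold, red points lie above 0 and blue points below. Gnai1, Rgs4 and Pde4b lie past 2-fold on the right and Prkar2b alone on the left.

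All 9 adenylyl cyclases passed the filter, and none was past 2-fold. Adcy6, a cyclase that Gi α subunits and calcium inhibit, had 196 units in Pr-HP against 304, 326 and 300.3 units in C4-HP, C4-LP and Pr-LP. The responder values averaged 310 ± 14.0 units (SD over 3 populations), and Pr-HP lay clearly below them. The difference was -0.66 (SE 0.11), or 1.58-fold lower, with a limma adjusted p of 0.258. Adcy6 had no other probe set that passed the filter. Adcy9 was also lowest in Pr-HP, at 339.8 units against 347, 459.6 and 458, but C4-HP lay close to it.

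In contrast, 5 of the 9 cyclases were higher in Pr-HP than in any responder population, by small margins, where 29.6% of all genes were. Adcy7 had 247 units in Pr-HP against 175, 170.1 and 191 units in C4-HP, C4-LP and Pr-LP (0.47, limma adjusted p = 0.401). Adcy5, which like Adcy6 is inhibited by calcium, had 614 units in Pr-HP against 518, 506 and 525 (0.25, adjusted p = 0.468), though 1 of its 3 other probe sets, which takes its place when probe sets with a lettered suffix are left out, gave -0.01. Adcy1 and Adcy8, the calcium-stimulated cyclases, differed by 0.17 and 0.14, and Adcy4 by 0.10. Adcy8, for example, had 173 units in Pr-HP against 149.7, 150.3 and 171, so that Pr-LP was almost as high. Adcy2 and Adcy3 lay inside the responder range, with differences of 0.03 and -0.08.

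The phosphodiesterases were the largest group, with 22 genes by symbol, 20 of them past the filter, and 8 of the 20 were highest in Pr-HP and 2 lowest, where 29.6% and 27.7% of all genes were. The 8 include Pde6d and Pde12 and the 2 include Pde4dip, which are proteins of another kind. Pde4b, a cAMP-specific phosphodiesterase of the rolipram-sensitive type, had 1317 units in Pr-HP against 820, 757 and 399 units in C4-HP, C4-LP and Pr-LP. Pr-HP was the highest population, but the responder values themselves spread widely, at 659 ± 227 units (SD over 3 populations). The difference was 1.07 (SE 0.47), or 2.10-fold, with a limma adjusted p of 0.573. Without Pr-LP it was 0.74, under 2-fold, and a second probe set of Pde4b gave 0.37. Pde4d, of the same family, had 266 units in Pr-HP against 228, 213 and 147 (0.47, adjusted p = 0.682), and Pde4a lay inside the responder range.

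Pde3b, the phosphodiesterase through which insulin and IGF-1 lower cAMP, had 982 units in Pr-HP against 678, 694 and 801 units in C4-HP, C4-LP and Pr-LP. The difference was 0.44 (SE 0.14), or 1.36-fold, with a limma adjusted p of 0.467. All 4 probe sets of Pde3b on chip B were highest in Pr-HP, with differences of 0.46, 0.60 and 0.81 in the other 3. Its relative Pde3a did not pass the filter. Pde2a, which degrades both cAMP and cGMP, had 767 units in Pr-HP against 687, 740 and 608 units, and its probe set without a lettered suffix gave -0.12, the opposite direction.

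A pair of phosphodiesterases split the responder cells instead. Pde1c, a calmodulin-dependent enzyme that acts in β cells, had 255.7 units in Pr-HP against 160.2, 302 and 94.8 units in C4-HP, C4-LP and Pr-LP, so that C4-LP was the highest population. Pde10a had 152 units in Pr-HP against 96.5 and 145 units in C4-HP and C4-LP, and lay under the floor of chip B (58.6 units) in Pr-LP. Their differences from the responder cells were 0.62 and 0.70 (limma adjusted p = 0.824 and 0.744), and both passed 2-fold without C4-LP, at 1.05 and 1.02. Without Pr-LP they were 0.22 and 0.36, so that both values rest on which responder populations are included. A second probe set of Pde1c had 82.6 units in Pr-HP against 75.5, 123 and 53.9, with the populations in the same order.

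Of the Pde symbols, those that name another kind of protein lay within 2-fold. Pde4dip, which encodes myomegalin, an anchor for a phosphodiesterase, had 904 units in Pr-HP against 1335, 1171 and 1207 units in C4-HP, C4-LP and Pr-LP, a difference of -0.45 (limma adjusted p = 0.411). Pde6d, a carrier of prenylated proteins, had 938 units in Pr-HP against 837, 680 and 807. Pde12, an RNA-degrading enzyme, had 193 units in Pr-HP against 159.8, 161 and 159 (0.27, limma adjusted p = 0.491). Pr-HP lay outside the responder range in all 3, below it for Pde4dip and above it for the others.

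Of the 6 PKA subunit genes, 4 were below every responder population in Pr-HP, where 27.7% of all genes were, and the same 4 had an unadjusted limma p under 0.05, where 9.94% of all genes had. Of the others, 1 lay inside the responder range and 1 was higher, and none passed after adjustment. Prkar2b, which encodes the RIIβ regulatory subunit of neurons, fat and endocrine cells, had 135 units in Pr-HP against 358, 291 and 424 units in C4-HP, C4-LP and Pr-LP. Pr-HP lay far below all 3 responder values, and the responder cells averaged 358 ± 66.8 units (SD over 3 populations). The difference was -1.38 (SE 0.24), or 2.61-fold lower, with a limma adjusted p of 0.257. A second probe set on the same chip had 124 units in Pr-HP against 239.8, 210.2 and 321, a difference of -1.03.

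Prkar1b, the RIβ regulatory subunit of neural tissue, had 1657 units in Pr-HP against 2116, 2158 and 2483 units in C4-HP, C4-LP and Pr-LP (-0.44, limma adjusted p = 0.480), and its other probe set gave -0.52. Prkaca and Prkacb encode the catalytic subunits, which carry the kinase activity. Prkacb had 1059 units in Pr-HP against 1417, 1556 and 1855 units (-0.59, SE 0.19, adjusted p = 0.472). Prkaca had 1847 units in Pr-HP against 2526, 2403 and 2267 (-0.38, SE 0.12, adjusted p = 0.467). The other probe sets of Prkaca, both on chip C, gave -0.85 and 0.32, in opposite directions.

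Prkar1a, the RIα regulatory subunit found in most tissues, went the other way, at 6505 units in Pr-HP against 4587, 6413 and 3670 units in C4-HP, C4-LP and Pr-LP. Pr-HP and C4-LP were nearly equal, and the difference of 0.45 from the responder mean was within the spread of the responder cells (SE 0.35, limma adjusted p = 0.747). Prkar2a, the RIIα subunit, had 719.7 units in Pr-HP against 640.4, 817 and 822, inside the responder range.

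Of the 17 RGS genes, 13 passed the filter. Rgs4, which speeds GTP hydrolysis on Gi and Gq α subunits and is abundant in brain, had 727 units in Pr-HP against 247, 343 and 368 units in C4-HP, C4-LP and Pr-LP. Pr-HP lay far above the highest responder population, and the responder cells averaged 319 ± 64.1 units (SD over 3 populations). The difference was 1.21 (SE 0.27), or 2.31-fold, with a limma adjusted p of 0.340. Another probe set of Rgs4 on chip C gave 0.31, at 418 units in Pr-HP against 302, 322 and 396. The 3 probe sets had Pr-HP as the highest population and differed in the size of the difference.

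Rgs17, which acts on Gi and Gz α subunits, had 267 units in Pr-HP against 131, 257 and 150.3 units in C4-HP, C4-LP and Pr-LP, so that C4-LP reached almost the same value (0.64, limma adjusted p = 0.685). Its other probe sets past the filter, both on chip B, gave 0.10 and 0.74, and in both C4-LP was the highest population. Rgs8, known from brain, had 2129 units in Pr-HP against 2117, 2011 and 2316, a difference of -0.01, and Rgs3 had 991 units against 933, 929 and 1234. For these 2 genes Pr-HP lay inside the responder range. Rgs16, an RGS protein of Gi and Gq signalling, had 312 units in Pr-HP against 369, 383 and 497, with Pr-HP lowest and Pr-LP highest (-0.40, adjusted p = 0.642). Rgs7bp, a membrane anchor for RGS7 and its relatives and not an RGS protein itself, had 913 units in Pr-HP against 1199, 1269 and 1330 (-0.47, limma adjusted p = 0.359), and its second probe set gave -0.31. Rgs2, an RGS protein of Gq signalling, did not pass the filter, and was under the floor in Pr-HP and C4-HP and at 103 units in C4-LP.

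**Figure D3:**
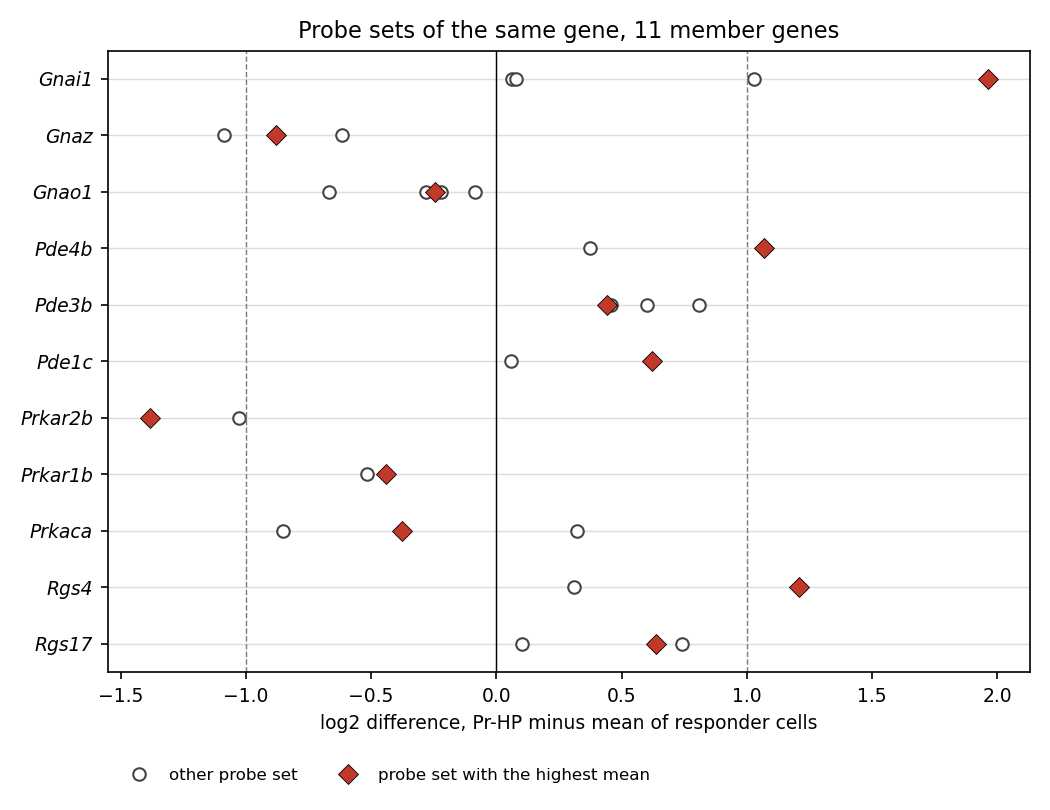
Log2 difference (x axis), Pr-HP minus the mean of the 3 responder populations, for every probe set past the filter of selected member genes (y axis). Other genes with several probe sets are not drawn, among them Gnas and Pde2a, whose probe sets also lie on both sides of 0. Red diamonds mark the probe set with the highest mean and open circles the others; dashed lines mark 2-fold. The probe sets of Gnaz, Prkar2b and Pde3b lie on the same side of 0, those of Gnai1 and Rgs4 lie on the same side with unequal sizes, and those of Prkaca lie on both sides.

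Across all roles, 22 of 75 members (29.3%) had Pr-HP above all 3 responder populations, against 29.6% of all genes, and 21 (28%) had it below all 3, against 27.7%. With 4 values per gene these shares lay near those of the whole set. By role, Pr-HP was highest for 5 of 9 cyclases and lowest for 2, and highest for 8 of 20 phosphodiesterases and lowest for 2. For the 6 PKA subunits, Pr-HP was lowest in 4 and highest in 1. For the 13 RGS genes, Pr-HP was lowest in 4 and highest in 2. The median log2 difference was 0.10 for the cyclases, 0.11 for the phosphodiesterases, -0.25 for the PKA regulatory subunits and -0.05 for the RGS genes.

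PKA acts on transcription through CREB, which binds the palindrome TGACGTCA (the cAMP response element, CRE) or its half-site TGACG. The windows from 250 bases before to 50 after an annotated start (RefSeq, GRCm38.p6) were searched on both strands for these letters. Over all 32851 windows, 1.79% held the palindrome and 20.8% a half-site, and a palindrome counts as a half-site on each strand. Of the 86 members 67 had a window, which is under 80%, so no share over the members is given, and Gnaz and Adcy6 had none. The windows of the 4 members past 2-fold in Pr-HP are printed to show what lies at their starts, with that of Prkar1a, which held the palindrome. They run 5′ to 3′ on the gene's strand, at chr5:18360364-18360663 (minus strand, Gnai1), chr1:169747593-169747892 (minus, Rgs4), chr4:102421305-102421604 (plus, Pde4b), chr12:32061228-32061527 (minus, Prkar2b) and chr11:109650699-109650998 (plus, Prkar1a). Capitals mark the half-sites, read as TGACG on the printed strand or CGTCA on the other.
Gnai1: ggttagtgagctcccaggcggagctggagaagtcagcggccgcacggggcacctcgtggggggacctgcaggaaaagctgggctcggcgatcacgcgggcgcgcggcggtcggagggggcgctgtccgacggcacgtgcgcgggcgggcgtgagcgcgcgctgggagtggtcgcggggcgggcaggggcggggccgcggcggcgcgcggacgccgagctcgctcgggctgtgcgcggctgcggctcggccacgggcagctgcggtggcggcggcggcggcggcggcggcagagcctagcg
Rgs4: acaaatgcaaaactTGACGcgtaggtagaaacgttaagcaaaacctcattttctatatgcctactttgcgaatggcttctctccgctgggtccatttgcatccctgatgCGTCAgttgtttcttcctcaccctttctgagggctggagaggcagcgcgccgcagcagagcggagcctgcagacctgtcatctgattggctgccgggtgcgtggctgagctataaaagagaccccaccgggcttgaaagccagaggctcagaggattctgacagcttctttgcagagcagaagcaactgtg
Pde4b: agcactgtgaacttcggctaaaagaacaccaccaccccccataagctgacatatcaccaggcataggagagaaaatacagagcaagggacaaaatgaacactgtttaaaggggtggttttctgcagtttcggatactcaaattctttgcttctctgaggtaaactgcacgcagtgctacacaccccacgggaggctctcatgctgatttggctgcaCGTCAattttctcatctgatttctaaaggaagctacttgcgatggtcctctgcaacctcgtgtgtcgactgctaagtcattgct
Prkar2b: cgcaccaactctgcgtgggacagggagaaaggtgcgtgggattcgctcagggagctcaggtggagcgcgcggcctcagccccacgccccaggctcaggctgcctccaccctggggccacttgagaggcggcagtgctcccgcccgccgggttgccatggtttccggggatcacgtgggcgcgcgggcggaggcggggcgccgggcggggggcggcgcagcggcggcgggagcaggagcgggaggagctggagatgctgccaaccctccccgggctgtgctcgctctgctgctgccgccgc
Prkar1a: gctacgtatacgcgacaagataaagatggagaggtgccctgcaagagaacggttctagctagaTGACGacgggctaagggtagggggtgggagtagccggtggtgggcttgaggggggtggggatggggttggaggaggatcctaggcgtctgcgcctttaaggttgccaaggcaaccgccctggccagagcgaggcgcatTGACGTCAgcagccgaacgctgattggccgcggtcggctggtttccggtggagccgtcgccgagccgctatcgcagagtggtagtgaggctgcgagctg
The Rgs4 window held 2 half-sites, the Pde4b window 1 and the Prkar1a window the palindrome and a further half-site, while the Gnai1 and Prkar2b windows held none. Pde4b has 3 other annotated starts and Prkar2b 1 other, whose windows held no half-site, and Prkar1a has 5 others, 1 of which overlaps the printed window and holds the same palindrome. A match of letters is a description and does not show that CREB binds there.

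The second comparison was passage in parental cells, Pr-HP against Pr-LP, with 1 array on each side of every chip and so no test. Of the 75 members, 5 (6.67%) were more than 2-fold higher in Pr-HP, against 2.08% of all genes, and 3 (4%) were more than 2-fold lower, against 1.62%. The 5 higher genes were Gnai1 (2.15 on the log2 scale), Pde4b (1.72), Pde1c (1.43), Gng3 (1.39) and Pde10a (1.38), and the 3 lower ones were Prkar2b (-1.65), Gng4 (-1.21) and Gnaz (-1.01). Rgs4 lay just inside 2-fold, at 0.98. The median size of the difference was 0.19 over members and 0.16 over all genes.

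In clone 4 cells, none of the 75 members was past 2-fold between C4-HP and C4-LP in either direction, where 0.367% of all genes were higher and 1% lower in C4-HP. The differences of widest size were -0.97 for Rgs17, -0.92 for Pde1c, -0.84 for Gnai1, -0.78 for Rgs9, -0.75 for Gnaq and 0.61 for Gnai3. Apart from Gnai3, these were lower in C4-HP. The other probe sets of Gnaq gave -0.01 and 0.06, and those of Gnai1 gave -0.56 on chip A and 0.00 and -0.14 on chip B. Rgs9, a GTPase accelerator of striatal and retinal signalling, had 290.0 units in C4-HP against 499 units in C4-LP. The median size of the difference was 0.13 over members and 0.12 over all genes.

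A few genes ran in opposite directions with passage in the parental and the clone 4 cells. Taking differences over 0.5 in size on both sides, 4 of 75 members (5.33%) did so, against 2.09% of all genes. They were Gnai1, Pde1c, Pde10a and Rgs17, and all 4 were higher in Pr-HP than in Pr-LP and lower in C4-HP than in C4-LP. For Rgs17, another probe set on chip B had 133 units in Pr-HP against 50.4 units in Pr-LP, which is under the floor. It had 49.7 units in C4-HP, also under the floor, against 147 units in C4-LP. A further Rgs17 probe set on chip B gave 0.24 in parental and -0.48 in clone 4 cells. These directions were the same, with sizes under 0.5. Prkar2b and Gnaz, by contrast, were lower in Pr-HP than in Pr-LP and slightly higher in C4-HP than in C4-LP (0.30 and 0.18). Whether the parental and clone 4 differences differ was not tested, since each rests on 2 arrays.

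**Figure D4:**
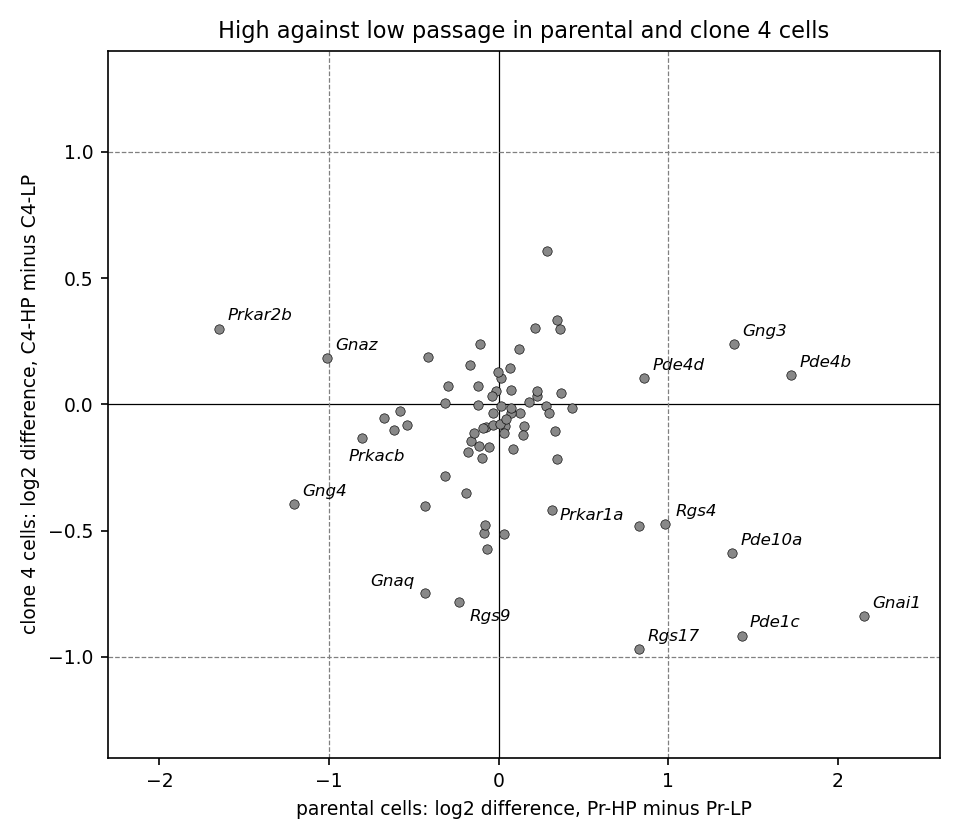
Log2 difference of high against low passage in clone 4 cells (y axis, C4-HP minus C4-LP) against that in parental cells (x axis, Pr-HP minus Pr-LP), 1 point per member gene that passed the filter. Dashed lines mark 2-fold. Members spread further along the parental axis, where 8 lie past 2-fold, than along the clone 4 axis, where none does, and Gnai1, Pde1c, Pde10a and Rgs17 lie at the lower right.

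The clone was set against the parental cells at the same passage range, C4-LP against Pr-LP, again without a test. Of the 75 members, 2 (2.67%) were more than 2-fold higher in C4-LP, against 1.85% of all genes, and none was more than 2-fold lower, against 1.19%. The 2 genes were Pde1c (1.67) and Pde10a (1.31), whose values are given above, and the Pr-LP value of Pde10a lay under the floor. The study lists Pde1c for this comparison on these arrays, so its value is a description. Pde4b followed at 0.92, Gnat2 at 0.91, Prkar1a at 0.81, Rgs17 at 0.78 and Gng3 at 0.73, all higher in C4-LP. Prkar2b was lower in C4-LP than in Pr-LP, at -0.55. A second probe set of Gng12, a γ subunit, had 1647 units in C4-LP against 647 units in Pr-LP. Since the comparisons of Pr-HP and of C4-LP with Pr-LP share the Pr-LP arrays, a low or high Pr-LP value enters both.

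Around the members, 7 lists of pathway genes were counted in Pr-HP against the responder cells, and none of their genes was called by limma after adjustment. Of 33 receptors listed, 21 were measured. Glp1r, the receptor gene of GLP-1, was not among these 21, nor was the adrenaline receptor gene Adra2a. Of the 21, 15 passed the filter, all within 2-fold. Ffar2, a receptor for short-chain fatty acids that couples to Gi and Gq, had 481 units in Pr-HP against 825, 831 and 871 units in C4-HP, C4-LP and Pr-LP (-0.81, limma adjusted p = 0.163), well below a narrow responder range. Of 3 receptor kinases and arrestins past the filter, Arrb1, which uncouples receptors from G proteins, had 442 units in Pr-HP against 211, 276 and 186 (just under 2-fold, limma adjusted p = 0.40), and its other probe set gave a log2 difference of 0.42. The lists of 6 Gα accessory genes and of 5 cAMP effectors other than PKA that passed the filter held no gene past 2-fold.

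Among 14 PKA anchors and inhibitors that passed the filter, 1 was past 2-fold higher and 1 lower. Akap2, an anchor that tethers PKA, had 432 units in Pr-HP against 132, 135 and 128 units in C4-HP, C4-LP and Pr-LP, a difference of 1.71 (SE 0.10) that came just short of the threshold (limma adjusted p = 0.0522). Its other probe sets gave 1.20 and -0.11, so that 1 of the 3 did not show it. Akap13, another anchor of PKA, had 343 units in Pr-HP against 1008, 970 and 702, a difference of -1.36 (adjusted p = 0.278), and its other probe set gave -0.32. Of 8 genes of the CREB family and its partners and 12 CREB targets that passed the filter, Crem, which stands in both lists and encodes activators and repressors that bind the CRE, had 578 units in Pr-HP against 225, 337 and 119.8 (1.47, adjusted p = 0.567). Pcsk1, a prohormone convertase counted among CREB targets, had 1379 units in Pr-HP against 771, 759.8 and 425.0 units (1.13, limma adjusted p = 0.522). Crem and Pcsk1 were the only CREB targets past 2-fold higher (2 of 12), where 1.5% of all genes were. The other 10 lay within 2-fold, and the median difference of the 12 was 0.09. In Crem and Pcsk1, as in Pde4b and Gng3, Pr-HP was the highest population and Pr-LP the lowest.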

How the data were processed

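The authors hybridised RNA of Pr-HP, C4-HP, C4-LP and Pr-LP cells to the chips A, B and C, and deposited 1 linear intensity per probe set and array, made with GeneChip software. The sources used here do not name the method of probe summary or normalization. No column was left unmapped (0 of 12), and arrays carry no read depth, so their number limits the precision. Control probe sets (198) were left out. Of the remaining 36701 probe sets, 29131 had 1 symbol in the platform annotation, 724 several and 6846 none, and only the first kind was assigned to a gene.

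Values under the chip's 20th percentile (67.3, 58.6 and 29.1 units on chips A, B and C) were raised to it, and the test took the 23340 probe sets that lay above the 40th percentile of their chip in 1 array or more. Pr-HP was set against the 3 responder populations with limma 3.58.1 in R 4.3.3 (lmFit and eBayes within each chip, 2 residual and 1.93 to 2.47 prior degrees of freedom). P-values were adjusted by the Benjamini-Hochberg method over all 3 chips, with a threshold of 0.05. The fit called 15 probe sets higher and 4 lower in Pr-HP, none of them of a member. Comparisons of 1 array with 1 were described by a 2-fold threshold on floored values. The fit was also run on simulated data as a self-check. There the responder values were independent draws around a shared mean, unlike populations of differing line and passage. That run therefore does not bear on the p-values reported here. Tables were handled with Python 3.11.15 and pandas 2.3.3. Probe sets with a lettered suffix, such as those that represent Gnai2, Gnas, Pde2a, Rgs8, Adcy5 and Adcy4, may also bind transcripts of related genes.

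The members, the pathway lists (receptors, receptor kinases and arrestins, Gα accessory proteins, cAMP effectors other than PKA, PKA anchors and inhibitors, CREB family and partners, CREB targets) and the marker lists were chosen with earlier results of these data known. Named were Gnai1 and Adcy6, members past 2-fold in any comparison, the 3 members with the highest mean in each role, members of another kind by product and pathway genes past 2-fold. Other members (such as Adcy7, Gnaq, Pde4d and Rgs17) and the pathway genes Ffar2 and Arrb1 were chosen after their values were seen. Alternatives varied the floor, filter, scaling, variance model, choice of probe set and responder populations.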

Additional observations from a re-analysis of the deposited data

Results flagged for a closer look

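In 4 member genes, high against low passage ran in opposite directions in the parental and the clone 4 cells, each by more than 0.5 on the log2 scale. For Gnai1 the difference was 2.15 for Pr-HP minus Pr-LP and -0.84 for C4-HP minus C4-LP. For Pde1c it was 1.43 in parental cells and -0.92 in clone 4 cells, and for Pde10a 1.38 and -0.59. For Rgs17 it was 0.83 in parental cells and -0.97 in clone 4 cells. The difference between the lines was not tested, since each value compares 1 array with 1. The second probe set of Gnai1 on chip A and that of Pde1c on chip C had the same directions. The pair of Gnai1 probe sets on chip B did not show them at this size, with 0.05 and 0.19 in parental cells and 0.00 and -0.14 in clone 4 cells. For Rgs17, the chip B probe sets past the filter gave 1.19 and 0.24 in parental cells and -1.33 and -0.48 in clone 4 cells.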

How the results depend on the processing

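Every p-value rests on 1 Pr-HP array and 3 responder arrays for each chip, or fewer responder arrays where a population was left out. A difference that did not pass may therefore still exist. Under the main setting and 13 alternatives, limma called 0 members in each. Of the 35 member genes followed through the settings, 32 kept their direction. Without probe sets that carry a lettered suffix, Adcy5 was -0.012 and Pde2a -0.117, from other probe sets. With the line as a block, a setting that compares Pr-HP with Pr-LP alone, Gnat2 was 0.031. Members not followed have no value under the alternatives. The lowest adjusted p of a member followed was 0.0836 for Pde12 (no filter), and Gnai1 reached 0.119 without C4-LP. Gnai1 ranged from 0.78 to 2.22 on the log2 scale, Rgs4 from 0.76 to 1.32, Pde4b from 0.72 to 1.72, Prkar2b from -1.65 to -1.12, Gnaz from -1.01 to -0.82 and Adcy6 from -0.69 to -0.55. Of these ends, 1.72, -1.65 and -1.01 came with the line as a block and so are Pr-HP minus Pr-LP. With the mean over a gene's probe sets, 0 members were past 2-fold higher in Pr-HP than the responder cells (3 with 1 probe set), and 5 were past 2-fold between Pr-HP and Pr-LP (8 with 1 probe set). Between C4-LP and Pr-LP, 1 member was past 2-fold with the floor at the 40th percentile and 1 with log2(value + 50), against 2. Leaving out 1 responder population at a time gave 2 (without Pr-LP) to 5 (without C4-LP) members past 2-fold higher in Pr-HP. In the other 78 summary values, counts equalled the main count or lay within a preset ratio of it. The median stayed within 0.043 of its main value, the SD over the responder populations. The other 452 gene values kept their direction.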
